A study of Mus musculus with 40 samples.

Results

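This account covers 10 enzyme genes of xenobiotic metabolism in the mouse colon. They are the glutathione transferases Gstm1, Gstm3, Gstp1 and Gstp2, the cytochrome P450 genes Cyp2c55, Cyp2s1 and Cyp4f15, and the carboxylesterases Ces1d, Ces1g and Ces2a. The members were chosen by name with earlier results of these data known, and each matched 1 of the 45792 mouse gene IDs in the count table. The shares of all genes given beside their calls therefore describe the list and do not test it. Colonised mice were given 2000000 cells, purified by sorting, of Tritrichomonas musculis (T.mu), a flagellate that lives in the gut lumen, and control mice were given no inoculum. Colonic epithelial cells and total colonic tissue were collected 3, 14 and 48 days later. Each of the 12 groups of preparation, day and inoculum held 3 libraries at days 3 and 14 and 4 libraries at day 48, 40 in all. The labels give a litter for each library but no strain, age or sex, and p-values measure the spread between these libraries.

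Ingested chemicals and the body's own lipid mediators are cleared in steps. Cytochromes P450 oxidise a substrate, carboxylesterases cut ester bonds in drugs and in stored lipids, and glutathione transferases then attach glutathione to reactive products so that transporters can export them. In the gut these enzymes sit mainly in the absorptive cells that face the lumen, and several are induced through the aryl hydrocarbon receptor, the pregnane X receptor or the NRF2 factor. In bulk RNA of this kind, fewer cells of a type and less RNA per cell cannot be told apart.

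On GRCm38, Gstm3 (chr3:107963696-107969283) and Gstm1 (chr3:108012255-108017973) lie near each other on the minus strand, and so do Gstp1 (chr19:4035407-4037985) and Gstp2 (chr19:4040285-4046023). Ces1d (chr8:93166068-93197838) and Ces1g (chr8:93302369-93337308) also share a chromosome and the minus strand, while Ces2a is at chr8:104734003-104741634 on the plus strand. Cyp2c55 is at chr19:39007019-39042693 and Cyp4f15 at chr17:32685627-32703352 on the plus strand, and Cyp2s1 is at chr7:25802475-25816913 on the minus strand. All are annotated as protein coding. The last 90 coding bases (5′ to 3′, stop codon last) show how alike each pair of paralogs is near the transcript end that these libraries read, while the untranslated ends were not compared on their own. Capitals mark bases that differ within a pair.
Gstp1: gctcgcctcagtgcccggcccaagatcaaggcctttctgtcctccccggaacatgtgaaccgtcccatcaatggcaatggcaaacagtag
Gstp2: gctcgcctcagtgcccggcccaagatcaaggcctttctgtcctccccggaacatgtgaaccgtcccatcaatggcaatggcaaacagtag
Gstm1: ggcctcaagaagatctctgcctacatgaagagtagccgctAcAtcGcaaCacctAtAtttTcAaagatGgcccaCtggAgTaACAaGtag
Gstm3: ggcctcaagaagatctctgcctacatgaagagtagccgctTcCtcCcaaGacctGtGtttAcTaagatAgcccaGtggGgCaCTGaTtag
Ces1d: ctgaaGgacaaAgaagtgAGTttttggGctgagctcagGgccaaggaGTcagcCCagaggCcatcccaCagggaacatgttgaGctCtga
Ces1g: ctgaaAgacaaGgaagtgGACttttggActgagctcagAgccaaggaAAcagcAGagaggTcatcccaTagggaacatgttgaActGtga
The Gstp1 and Gstp2 ends have 0 differences, and their whole coding sequences share 621 of 633 bases (98.1%). Of the 772 windows of 50 bases in the Gstp1 transcript, 481 (62.3%) also occur in Gstp2. How the submitters' counting treated such reads is not given in the sources used here, so the split between Gstp1 and Gstp2 is uncertain. Gstm1 and Gstm3 share 588 of 657 coding bases (89.5%), with 16 differences in the last 90 and 124 of 1240 windows in common. Ces1d and Ces1g share 1385 of 1698 (81.6%), with 15 differences at the end and 8 of 1955 windows in common.

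Promoter sequences of RefSeq (GRCm38.p6, 250 bases before the start site) were at hand for 9 of the 10 genes, 10 promoters in all. The pair that is nearly identical in its coding part is shown, with an AP-1 motif (TGANTCA) and the AhR core (GCGTG) in capitals, both searched on both strands.
Gstp1, chr19:4037913-4038162, minus strand: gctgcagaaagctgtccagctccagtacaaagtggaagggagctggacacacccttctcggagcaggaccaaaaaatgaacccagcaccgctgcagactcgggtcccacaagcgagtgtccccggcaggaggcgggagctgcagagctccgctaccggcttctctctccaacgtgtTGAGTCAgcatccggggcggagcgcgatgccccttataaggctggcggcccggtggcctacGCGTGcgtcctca
Gstp2, chr19:4042222-4042471, minus strand: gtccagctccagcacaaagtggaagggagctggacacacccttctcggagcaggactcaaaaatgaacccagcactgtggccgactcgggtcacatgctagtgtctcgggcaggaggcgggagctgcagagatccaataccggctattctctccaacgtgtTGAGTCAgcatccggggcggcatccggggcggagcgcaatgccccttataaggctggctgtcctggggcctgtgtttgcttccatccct
The AP-1 letters stand from -74 to -68 of the Gstp1 start and from -89 to -83 of the Gstp2 start, and 6.7% of 32851 promoters of this length hold them. The AhR core stands from -13 to -9 in Gstp1 and from -76 to -72 of 1 Gstm1 start, against 28.2% of all promoters. The antioxidant response element (TGACNNNGC, in 10.2% of promoters) was in none of these windows. These matches describe the letters only.

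Mouse counts per library ran from 170291 to 2866306 in epithelium (median 1166080) and from 220717 to 6756616 in total tissue (median 2158349), with 3 and 4 libraries under 400000. Depth was uneven between arms. Total tissue at day 48 had medians of 504696 counts with T.mu and 3323897.5 in controls, control tissue at day 14 had a median of 351445, and control epithelium at day 3 one of 327125. The single non-mouse entry was at 1424.5 to 42755.2 CPM (counts scaled to a common library total) in colonised tissue and 5.1 to 969.1 in control tissue, and at 45.2 to 2072.8 against 21.8 to 71.5 in epithelium. Fibroblast markers (10 genes) were low in the epithelial preparation, with a summed level of 106 to 312 CPM against 938 to 2583 in tissue. Smooth muscle markers (10 genes) were at 30.3 to 86.9 against 2650.3 to 6185. Other non-epithelial lists were not all lower there. Hepatocyte markers (6 genes) were at 51.3 to 140 CPM in epithelium and 0 to 32.2 in tissue. Red blood cell markers (6 genes) overlapped, at 3.85 to 301 and 0 to 38.7, and so did T cell markers (8 genes), at 2.00 to 36.4 and 0 to 24.8. Levels below are CPM scaled by TMM, a method that makes libraries of different composition comparable.

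Fold changes followed the GC content of transcripts across all genes tested, in all comparisons of T.mu with control but that in tissue at day 3. In total tissue at day 48 the median log2 fold change fell from 0.17 in the GC-poorest of 5 equal groups of genes to -0.41 in the GC-richest, and the count-weighted GC content was 46.4% to 47.4% in the T.mu libraries and 47.5% to 48.3% in controls. The opposite slope was present in epithelium, from -0.27 to 0.44 at day 3 and from -0.22 to 0.31 at day 14. In total tissue at day 14 it ran from -0.03 to 0.15, and at day 3 no group lay further from 0 than -0.03. Among the 10 genes GC content was lowest in Cyp2c55 (42.2%), between 47.3% and 50.8% in the carboxylesterases, between 52.5% and 55.8% in Cyp4f15 and the glutathione transferases, and highest in Cyp2s1 (57.0%). The calls of T.mu against control are therefore also given from a fit that corrects for GC content and transcript length, an alternative chosen after seeing these data when used without a litter block. It was not run for the control preparations, the interactions or the summed Gstp counts.

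**Figure D1:**
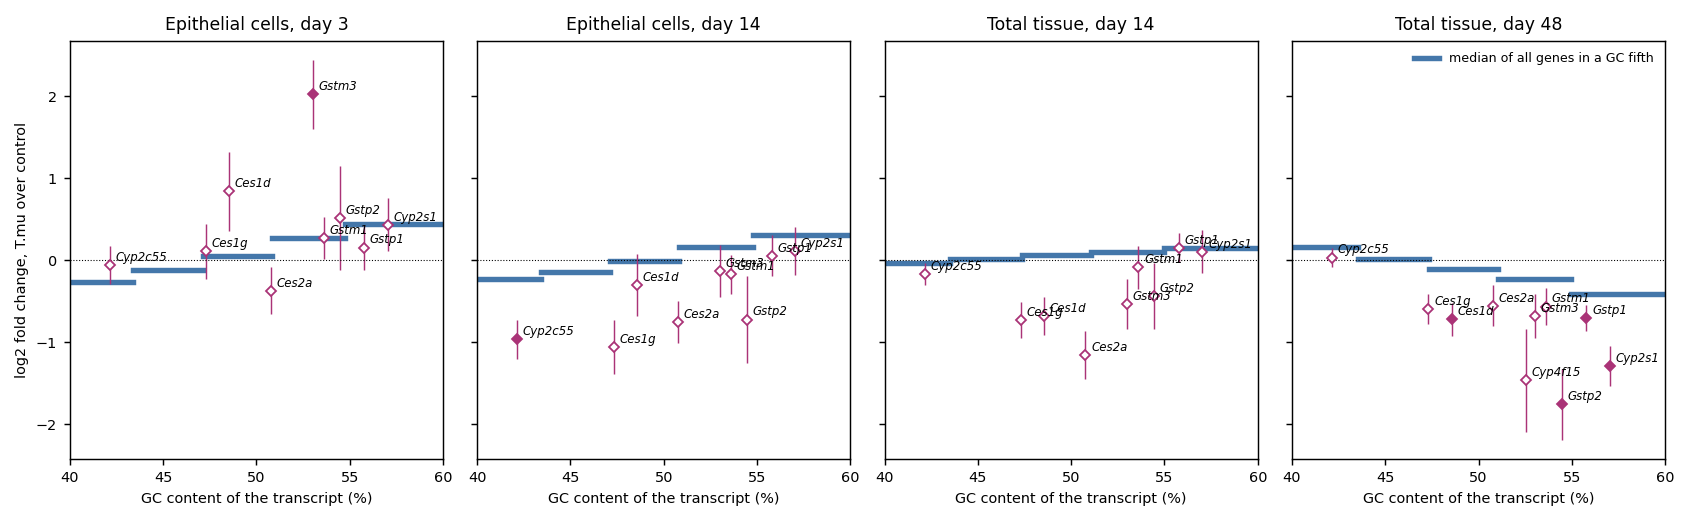
Log2 fold change (T.mu over control) against the GC content of the transcript, in percent, for 4 comparisons. Blue bars are medians of all genes tested in each of 5 groups of GC content (the axis is limited to 40% to 60%). Diamonds are the 10 genes with their SE, filled where adjusted p is under 0.05, and Cyp4f15 is left out of the day 14 panels because it was not tested in epithelium and had no counts in colonised tissue. The bars rise with GC content in epithelium and fall in total tissue at day 48, while Ces2a in tissue at day 14 lies below the bar of its group.

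In control mice all but 1 of the genes were lower in isolated epithelium than in total tissue. Gstm1 was the exception, at 194 ± 48.2 CPM in epithelium and 89.5 ± 12.6 in tissue (mean ± SD, n = 10 libraries each), a log2 difference of 1.14 ± 0.14 (SE, edgeR quasi-likelihood test, adjusted p = 3.4e-11). The lowest epithelial Gstm1 value, 145, was above the highest tissue value, 104. Cyp2c55 stood at 2664 ± 429.8 CPM in epithelium and 13274 ± 1579.5 in tissue (log2 difference -2.33 ± 0.11, adjusted p = 1.73e-33), and made up 1.33% of the counts of control tissue libraries. Ces2a was at 169 ± 53.4 and 1122 ± 188 CPM (-2.72 ± 0.15), and Ces1d at 35.5 ± 12.3 and 156 ± 28.2 (-2.17 ± 0.19). For these 3 genes the 10 epithelial and the 10 tissue values did not overlap.

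Ces1g was lower in epithelium by a smaller margin, 79.9 ± 25.4 against 161 ± 34.9 CPM (-1.03 ± 0.15, adjusted p = 1.99e-08). Cyp4f15 was near its detection limit in epithelium, with 2 counts among 10061972 in the control libraries and 342 among 29502135 in tissue. That is a ratio of 58.32 (95% exact counting interval 16.02 to 483.52), where intervals cover counting error only. The remaining differences were small, with Gstm3 at -0.66 ± 0.20, Gstp2 at -0.77 ± 0.27, Cyp2s1 at -0.38 ± 0.16 and Gstp1 at -0.33 ± 0.13. All 10 genes were past the threshold here, against 52.8% of all 11834 genes tested (23.1% higher in epithelium, 29.7% lower). This count is therefore read against a high background. Cyp4f15 passed the filter only through its tissue counts, so its call here was open in 1 direction and adds no support. With RLE scaling, with DESeq2 or without the libraries under 400000 counts only 6 were called, and Gstm3, Gstp1, Gstp2 and Cyp2s1 were not, with adjusted p from 0.0638 to 0.589 under RLE scaling. With the animal as a block, which assumes that same-numbered preparations of a group came from 1 mouse, Cyp2s1 also missed the threshold (adjusted p = 0.0754).

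Markers of absorptive surface colonocytes moved with this contrast, since 10 of 14 were lower in epithelium and 1 was higher, with a list median of -1.07 against -0.07 for all genes, of which 29.7% were lower and 23.1% higher. Their summed level was 19081 to 33176 CPM in control epithelium and 59162 to 85462 in control tissue. Goblet cell markers went the other way, at 32239 to 55672 CPM in control epithelium and 6437 to 13318 in control tissue. The part of cell composition in the enzyme differences was not tested. No difference between the days in control mice was called for any of these genes (edgeR, 2 degrees of freedom). Of those tested, 3 of 9 in epithelium and 3 of 10 in tissue had an unadjusted p under 0.05, against calls for 0.0791% and 1.15% of all genes, and limma voom called 0 and 1 (Cyp4f15). Epithelial Gstm3 controls were higher at days 14 and 48 than at day 3, by 1.57 and 1.04 on the log2 scale (edgeR, adjusted p = 0.199).

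**Figure D2:**
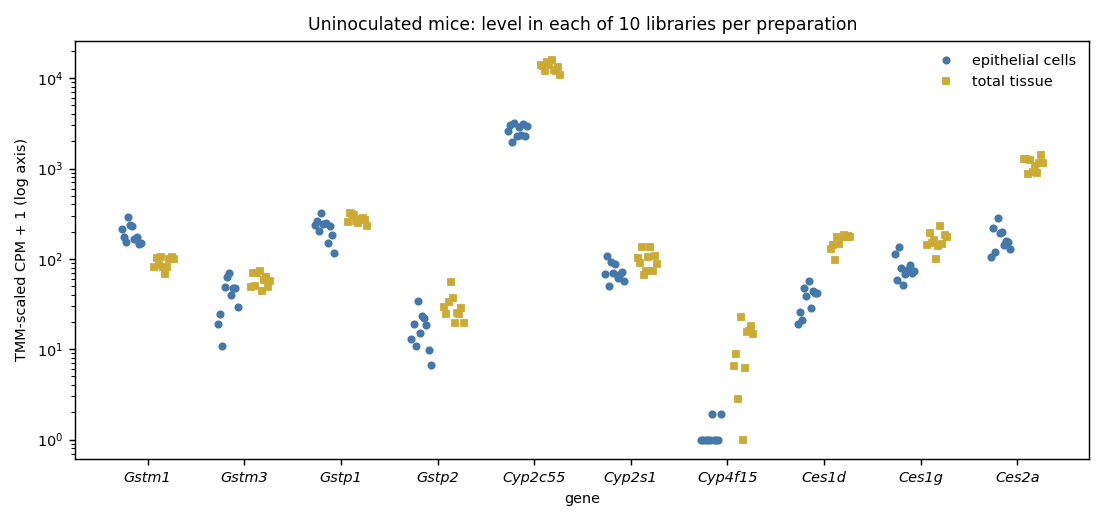
Levels of the 10 genes in uninoculated mice, as TMM-scaled CPM plus 1 on a log axis, with 1 point for each of 10 libraries per preparation. Circles are epithelial cells and squares total tissue. Cyp2c55, Ces2a and Ces1d are separated between the preparations, Gstm1 is separated in the opposite direction, and Gstp1 and Cyp2s1 overlap.

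Set against controls, the colonised groups showed few calls in epithelium and mostly lower values in tissue. In epithelium 1 of 9 tested genes was called at day 3 (Gstm3, higher; of all 10119 genes 0.356% were called, and 0.326% were called higher), 1 at day 14 (Cyp2c55, lower; 0.504% called, 0.168% lower) and 0 at day 48 (0.287% called in either direction). At day 48 3 genes had an unadjusted p under 0.05 in edgeR, and DESeq2 and limma voom also called 0. In total tissue 0 of 10 were called at day 3 (0.479% of 11696 genes called), with 2 at an unadjusted p under 0.05 and 0 by DESeq2 or limma voom. There 1 was lower at day 14 (Cyp4f15; 0.949% called, 0.145% lower) and 4 at day 48 (Cyp2s1, Gstp1, Gstp2 and Ces1d; 1.8% called, 0.795% lower). Of the 10 genes in tissue, 8 had a negative log2 fold change at day 3, 8 at day 14 and 9 at day 48. Their medians were -0.19, -0.49 and -0.69, beside -0.01, 0.06 and -0.11 over all genes, and placing Cyp4f15 at its counting bound left the day 14 median unchanged.

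Averaged over the 3 days, 6 of the 10 genes were lower in colonised tissue (of all genes 1.9% were called, and 0.402% were called lower). They were Ces1d, Ces1g, Ces2a, Cyp4f15, Gstm3 and Gstp2. In epithelium the mean effect was called for Ces2a and Cyp2c55, both lower (3.39% of all genes called, 0.919% lower), and for Gstm3, higher (2.47% called higher). A gene's libraries did not overlap between arms for 3 genes in tissue at day 3 (Ces1g, Gstm3, Gstp2), 2 at day 14 (Ces1g, Ces2a) and 7 at day 48 (Ces1d, Ces1g, Cyp2s1, Cyp4f15, Gstm3, Gstp1, Gstp2), each time with T.mu lower. Of all genes 7.39%, 4.81% and 7.01% showed such a separation. In epithelium Gstm3 was separated upward at day 3 (8.5% of all genes), Ces1g, Ces2a and Cyp2c55 downward at day 14 (8.97%), and Ces2a downward at day 48 (1.89%).

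**Figure D3:**
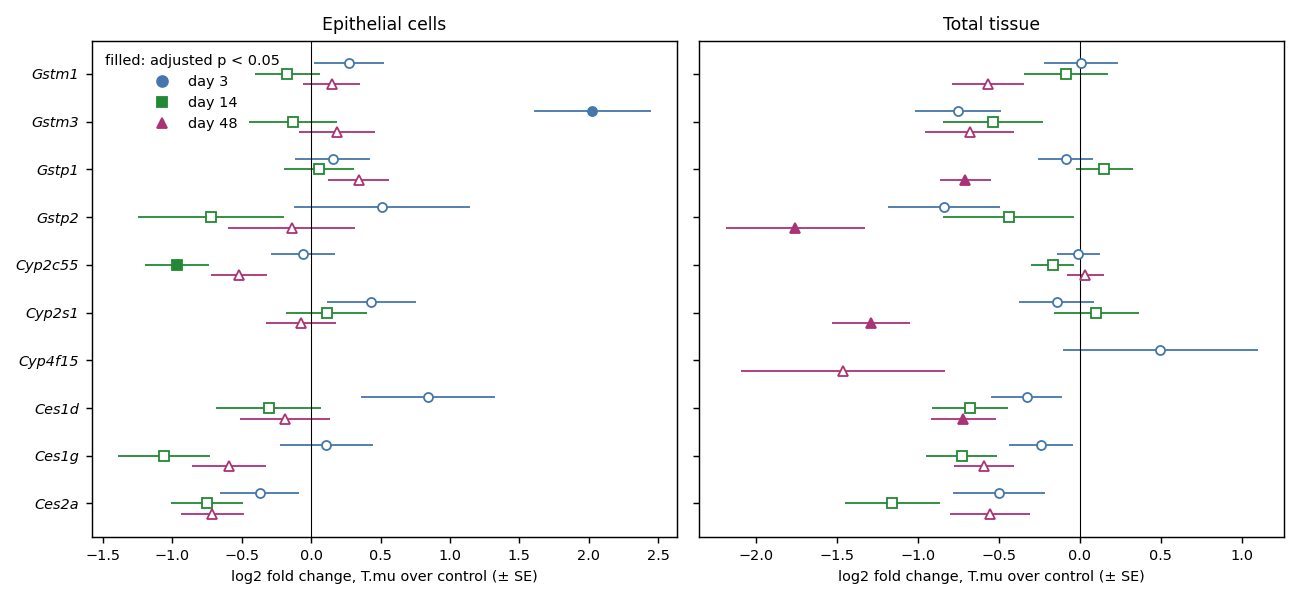
Log2 fold change of each gene, T.mu over control, with its SE, in epithelial cells (left) and total tissue (right) at days 3, 14 and 48. Filled symbols have an adjusted p under 0.05. Cyp4f15 was not tested in epithelium and is left out of total tissue at day 14, where the T.mu libraries held no counts. In total tissue the 3 carboxylesterases are below 0 on each day.

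The carboxylesterases were lower in colonised tissue on average over the days. Ces2a, the intestinal esterase that splits many ester drugs, was at 1276, 1282 and 865 CPM in the 3 control libraries of day 3 and at 919, 679 and 828 with T.mu. At day 14 the controls were at 1234, 903 and 1074 and the T.mu libraries at 499.8, 346 and 591. All 3 colonised libraries were thus below all 3 controls at day 14, while the arms overlapped at day 3.

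At day 48 the Ces2a controls were at 885, 1151, 1406 and 1148 CPM and the T.mu libraries at 588, 536, 1291 and 665, so that 1 colonised library lay within the control range. The log2 fold changes were -0.50 ± 0.28 at day 3, -1.16 ± 0.29 at day 14 (adjusted p = 0.0824) and -0.55 ± 0.25 at day 48 (adjusted p = 0.331). With the litter as a block both later days were called, at adjusted p = 3.62e-07 and 0.00361, on the assumption that litters of the same number match across the arms, which the labels do not state. The GC-corrected value was larger at day 14, -1.50 (adjusted p = 0.00693), and smaller at day 48, -0.15 (adjusted p = 0.838). Averaged over the days Ces2a fell by 0.74 ± 0.16 on the log2 scale (adjusted p = 0.0164), and by 0.72 after GC correction (adjusted p = 0.00665). Without the libraries under 400000 counts the mean effect was not called (adjusted p = 0.219), and leaving out any 1 of 4 libraries (day 3 control 1 or 2, day 14 control 3, day 3 T.mu 2) gave adjusted p from 0.0517 to 0.0585.

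Ces1g, which acts on lipid esters in gut and liver, had tissue levels of 142, 193 and 149 CPM in day 3 controls and 138, 137 and 138 with T.mu. At day 14 the controls were at 162, 99.4 and 139 and the T.mu libraries at 89.5, 77.4 and 73.1. At day 48 the values were 227, 146, 182 and 173 in controls and 99.1, 103, 143 and 128 with T.mu. The arms did not overlap on any of the 3 days, although at days 3 and 48 the highest colonised and lowest control value were close. No single day was called (adjusted p = 0.999, 0.105 and 0.0866). The mean effect was a fall of 0.52 ± 0.12 on the log2 scale (adjusted p = 0.00351), which stayed past the threshold in every alternative run (0.53 and adjusted p = 0.00803 after GC correction). After GC correction day 14 was called at -1.03 (adjusted p = 0.0163), and day 48 was at -0.31 (adjusted p = 0.473).

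Ces1d, an esterase that hydrolyses triglycerides in liver and fat, was at 126, 141 and 97.2 CPM in day 3 control tissue and at 93.5, 111 and 85.2 with T.mu. At day 14 it was at 173, 143 and 172 in controls and 149, 77.9 and 66.9 with T.mu, with 1 colonised library inside the control range. At day 48 the 4 controls lay close together at 181, 175, 179 and 175 CPM, above the T.mu libraries at 86.7, 108, 142 and 72.1. Ces1d fell by 0.72 ± 0.20 on the log2 scale at day 48 (adjusted p = 0.0463), a call lost in 13 of 18 alternatives, among them GC correction (-0.42, adjusted p = 0.27) and leaving out any of 7 of the 8 libraries (adjusted p up to 0.177). At day 14 it was at -0.68 ± 0.23 (adjusted p = 0.218), and at -1.04 after GC correction (adjusted p = 0.012). Its mean effect was a fall of 0.58 ± 0.13 (adjusted p = 0.00298), or 0.60 after GC correction (adjusted p = 0.00116), with adjusted p = 0.0504 without the shallow libraries.

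Adipocyte markers moved in tissue as well, and fat is a site of Ces1d expression. Their summed level was 52.7 to 73.5 CPM in day 3 controls and 146 to 196 with T.mu, 67.6 to 354 and 155 to 382 at day 14, and 692 to 3224 and 104 to 292 at day 48. At day 48 4 of the 7 tested markers were lower (list median -3.04), beside 0.795% of all genes, and Lep and Plin1 were at 0 in the T.mu libraries. At day 3 none was called (median 3.30), beside 0.479% of all genes called in either direction. The Ces1d log2 fold change was -0.33 ± 0.22 at day 3 (edgeR, adjusted p = 0.999) and -0.72 ± 0.20 at day 48 (adjusted p = 0.0463). The part of fat in these values was not tested. Paneth cell and small intestine markers set single libraries apart at day 48, at 38.0, 808, 45.2 and 3967 CPM in the 4 controls and 108, 3601, 42.8 and 1762 with T.mu. They were high in 2 libraries of each arm there. At day 14 they were at 15.9 to 43.9 CPM, and at day 3 at 45.7 to 64.0 in controls and 26.4 to 289 with T.mu. Their part in the differences at days 3 and 48 and in the means over days was not tested. Of the 14 surface colonocyte markers 3 were higher with T.mu in tissue at day 14 (median 0.51) and 2 at day 48 (median 0.34). Of all genes 0.949% and 1.8% were called in either direction. The summed levels of these markers were 89000 to 104540 CPM with T.mu against 65291 to 74665 in controls at day 14. Their part in the enzyme differences was not tested.

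**Figure D4:**
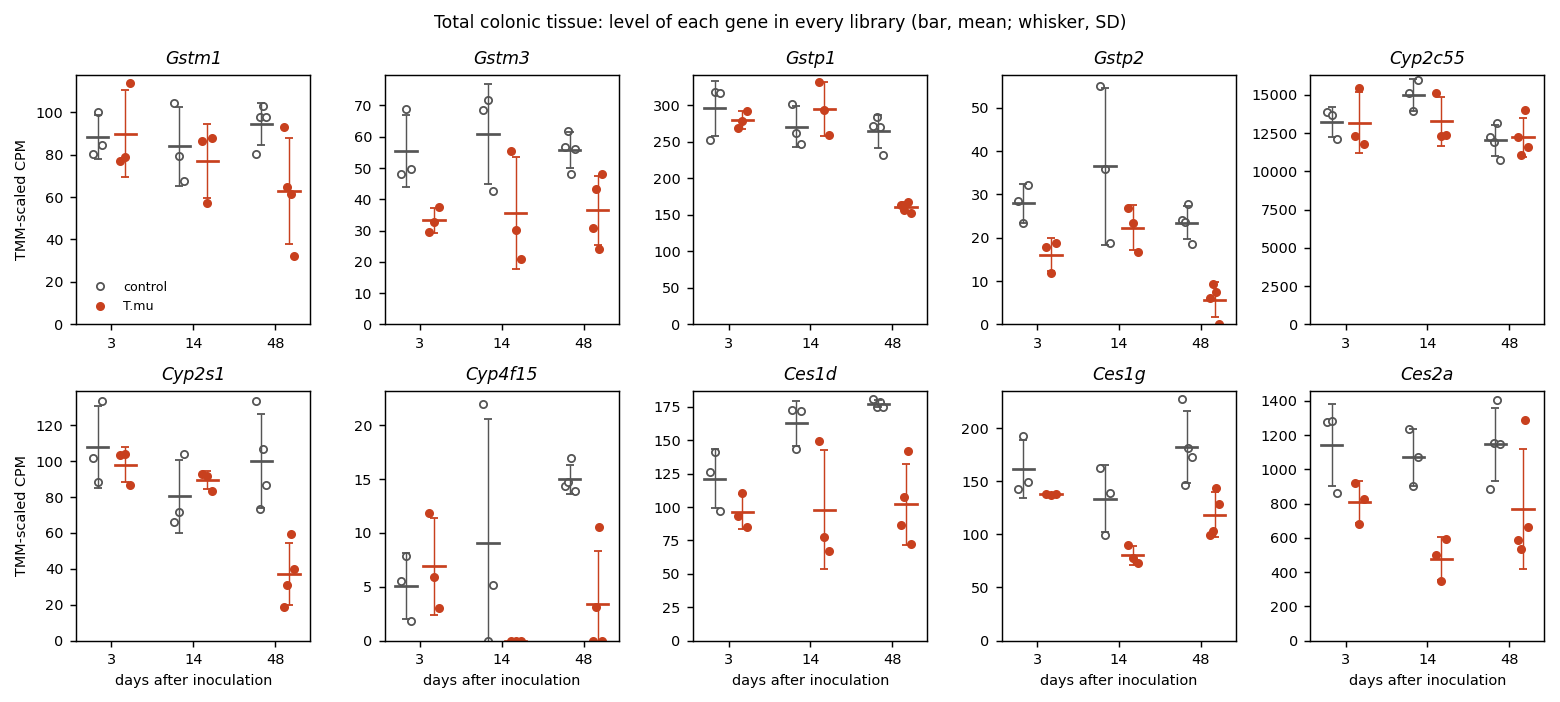
TMM-scaled CPM of the 10 genes in each total tissue library at days 3, 14 and 48 (open grey circles, control; filled red circles, T.mu), with the mean (bar) and SD (whisker) of each group. Each panel starts at 0. Ces1g is lower in all T.mu libraries on each day, Gstp1 and Cyp2s1 are separated from their controls at day 48, and Cyp2c55 overlaps throughout.

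In epithelium the same esterases had lower values at days 14 and 48. Ces2a was at 280.1, 192 and 197 CPM in day 14 controls and 172, 121 and 101 with T.mu, and at 143, 157, 154 and 128 against 111, 99.0, 91.0 and 57.5 at day 48. Neither pair of groups overlapped. Its mean effect was a fall of 0.61 ± 0.15 on the log2 scale (adjusted p = 0.0112), and of 0.78 after GC correction (adjusted p = 1.57e-05). Without day 14 control 1 or day 3 control 2 the adjusted p was 0.0521 or 0.0722. GC correction also brought Ces2a past the threshold at day 14 (-0.86, adjusted p = 0.029) and day 48 (-0.78, adjusted p = 0.0427).

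Epithelial Ces1g was at 77.7, 49.9 and 66.7 CPM in day 14 controls and 33.5, 33.7 and 24.7 with T.mu. The log2 fold change was -1.06 ± 0.33 (adjusted p = 0.16), and -0.59 ± 0.27 at day 48, where the colonised range of 32.7 to 80.1 CPM overlapped the control range of 69.2 to 85.1. Averaged over days it was -0.51 ± 0.18 (adjusted p = 0.0942), and it was called with a litter block (adjusted p = 0.0466) or after GC correction (adjusted p = 0.027). Ces1d in epithelium had wide spread, from 5.92 to 53.2 CPM among the 3 T.mu libraries of day 3, and no call on any day (adjusted p from 0.541 to 0.998).

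Of the cytochromes, Cyp2c55 was lower in epithelium but not detectably so in tissue. Cyp2c55, a P450 of the intestine that oxidises arachidonic acid, was at 3178, 2305 and 2909 CPM in day 14 control epithelium and 1289.8, 1669 and 1325 with T.mu. Every colonised value was below every control. The fall was 0.97 ± 0.23 on the log2 scale (adjusted p = 0.0262), and 0.87 after GC correction (adjusted p = 0.00248). Leaving out any 1 of the 6 libraries ended the call, with adjusted p from 0.0552 to 0.273, while the log2 fold change stayed between -1.08 and -0.86 over all alternatives. Goblet cell and enteroendocrine markers were also lower in the same libraries, while the other epithelial lists overlapped between the arms. Surface colonocyte markers summed to 29523 to 32655 CPM in controls and 27168 to 36459 with T.mu. Stem and proliferating cell markers were at 392 to 466 and 352 to 607, and tuft cell markers at 22.9 to 52.8 and 17.3 to 32.9. The part of these cell types in the falls of Cyp2c55, Ces1g and Ces2a was not tested. The summed goblet cell list was at 41412 to 55672 CPM in day 14 controls and 32212 to 36017 with T.mu (1 of 10 genes called lower). The enteroendocrine list was at 470.0 to 708 against 313 to 394 (1 of 8 lower). Of all genes 0.168% were called lower there.

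At day 3 epithelial Cyp2c55 overlapped between 2585, 3052 and 1948 CPM in controls and 2974, 2109 and 2627 with T.mu (log2 fold change -0.06 ± 0.23). At day 48 the values were 2324, 3102, 2278 and 2954 in controls and 1799, 1449, 2342 and 1963 with T.mu (-0.52 ± 0.20, adjusted p = 0.882). The mean effect over days was a fall of 0.51 ± 0.13 (adjusted p = 0.0138). In total tissue its group means ran from 12018 to 15014 CPM, with log2 fold changes of -0.01 ± 0.13, -0.17 ± 0.13 and 0.03 ± 0.11 on the 3 days. The difference between the preparations at day 14, -0.79 ± 0.27, was not past the threshold in edgeR (adjusted p = 0.516) and was in DESeq2 (adjusted p = 0.0456). A fall in 1 preparation and not in the other is thus not shown to be a difference between them.

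**Figure D5:**
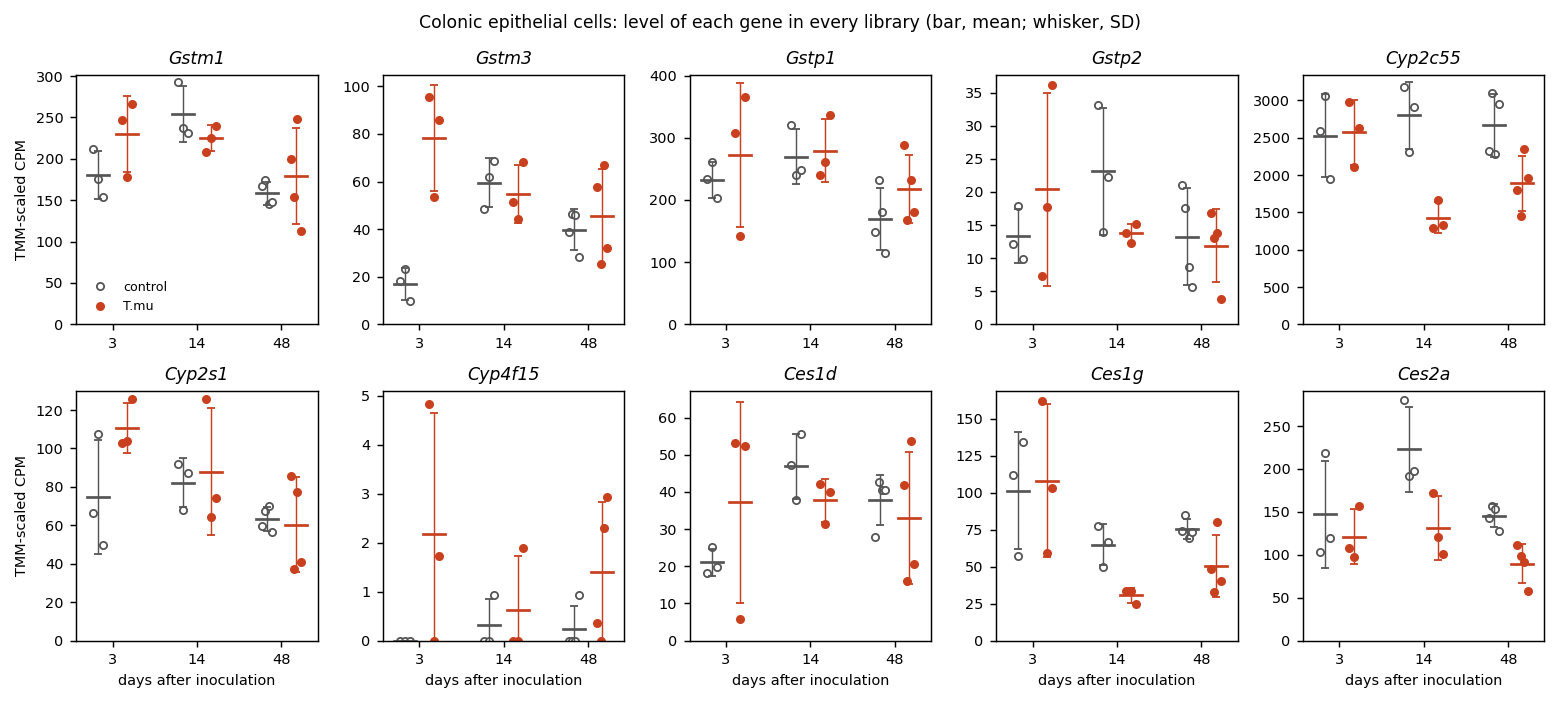
TMM-scaled CPM of the 10 genes in each epithelial library at days 3, 14 and 48 (open grey circles, control; filled red circles, T.mu), with the mean (bar) and SD (whisker) of each group. Each panel starts at 0. Gstm3 is higher with T.mu at day 3, where its controls are at 9.94 to 23.3 CPM, and Cyp2c55, Ces1g and Ces2a are lower at day 14.

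Cyp2s1, an extrahepatic P450 induced through the aryl hydrocarbon receptor, was lower in colonised tissue at day 48. The controls were at 134, 73.1, 107 and 86.8 CPM and the T.mu libraries at 18.6, 30.8, 59.3 and 40, from 6, 20, 79 and 10 counts. The arms did not overlap, and the log2 fold change was -1.29 ± 0.24 (adjusted p = 0.000611). After GC correction it was -0.72 (adjusted p = 0.0992), and with limma voom the adjusted p was 0.0667. At days 3 and 14 the log2 fold changes were -0.14 ± 0.23 and 0.10 ± 0.26, and in epithelium they lay between -0.07 and 0.43. The difference between days in tissue was not called (adjusted p = 0.116), but was with a litter block, with no filter on low counts, or without day 14 control 3 or day 48 T.mu 3.

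Cyp4f15, of a P450 subfamily that hydroxylates fatty acids and leukotrienes, was sparse. In day 14 tissue the controls held 8, 0 and 10 counts and the T.mu libraries none, although the T.mu libraries were deeper (6032122 counts in all against 2277442). With a floor of 3 counts over the colonised group, the pooled counts gave a bound of 15.89-fold lower. This bound takes the 18 control counts as exact and leaves out the spread between libraries. The difference was called by the edgeR test, which does not test the bound (adjusted p = 0.00305). The bound was 10.44 without control 1, 28.11 without control 3, 6.74 without T.mu 1 and 10.38 without T.mu 2. The call was lost without control 1 (adjusted p = 0.0544) or T.mu 1 (0.0585), and 1 control was itself at 0. After GC correction the adjusted p was 0.0017. At day 48 the controls were at 14.4, 14.7, 16.9 and 13.9 CPM and the T.mu libraries at 0, 3.08, 10.5 and 0. The summed counts, 267 and 16, gave a ratio of 2.78 (95% exact counting interval 1.68 to 4.93), but the fitted difference was not called (-1.46 ± 0.63, adjusted p = 0.274). The mean effect was called (adjusted p = 0.00312, or 0.0022 after GC correction), and since it includes the day without counts no fold is given for it. In epithelium all libraries together held 16 counts with T.mu and 2 in controls, too few for the test.

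Among the glutathione transferases, Gstm3 stood out at day 3, with a higher level in colonised epithelium and lower values in colonised tissue. Gstm3 is a cytosolic enzyme of the mu class. In epithelium its controls were at 18.2, 23.3 and 9.94 CPM, from 6, 13 and 2 counts, and the T.mu libraries at 95.5, 53.3 and 86.0, from 79, 18 and 100 counts. The arms did not overlap, and Gstm3 rose by 2.02 ± 0.42 on the log2 scale (adjusted p = 0.00614), or 1.70 after GC correction (adjusted p = 0.0257). The call was lost with limma voom (adjusted p = 0.359), without the 3 libraries under 400000 counts (0.283), and with only the libraries compared (0.0938). In the same libraries red blood cell markers summed to 9.94 to 60.9 CPM in controls and 88.8 to 301 with T.mu. Of 4 tested genes 1 was called higher, beside 0.326% of all genes. Smooth muscle markers summed to 34.8 to 45.4 CPM in controls against 56.8 to 86.9 with T.mu (0 of 4 called). Their part in the Gstm3 difference was not tested.

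The day 3 epithelial controls stood apart from those of other days, which were at 48.4 to 68.5 CPM at day 14 and 28.2 to 46.3 at day 48. The T.mu libraries of those days overlapped their controls, with log2 fold changes of -0.13 ± 0.32 and 0.19 ± 0.28. In day 3 tissue Gstm3 was at 48.2, 68.9 and 49.6 CPM in controls and 29.6, 32.8 and 37.4 with T.mu (-0.75 ± 0.27, adjusted p = 0.472). The response at day 3 differed between the preparations by 2.85 ± 0.52 (interaction test, adjusted p = 0.00403), the only one of the 10 genes called there (0.0338% of all genes). That call was lost with limma voom (adjusted p = 0.126) and without the shallow libraries (adjusted p = 0.0575). Averaged over days Gstm3 fell by 0.66 ± 0.16 in tissue (adjusted p = 0.013), and by 0.66 after GC correction (adjusted p = 0.0294). In epithelium its mean effect was a rise of 0.69 ± 0.20 (adjusted p = 0.0382), a call lost in 18 of 29 alternatives. Among them were GC correction (0.54, adjusted p = 0.115), limma voom (0.103), no shallow libraries (0.126), no filter (0.0555), the litter block (0.0588) and the omission of any of 12 single libraries (up to 0.088).

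The pi class genes were lower in colonised tissue at day 48. Gstp1 was at 272, 284, 270.1 and 232 CPM in controls and 164, 157, 167 and 152 with T.mu. The 4 colonised values lay within a narrow range that was below all controls. The log2 fold change was -0.71 ± 0.16 (adjusted p = 0.00547). It was -0.05 after GC correction (adjusted p = 0.933), where the call was lost. Gstp2 was at 24.1, 23.6, 27.7 and 18.5 CPM in controls and 6.19, 9.24, 7.51 and 0 with T.mu, from 18 counts in all, a ratio of 3.88 (95% exact counting interval 2.43 to 6.62).

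The Gstp2 log2 fold change at day 48 was -1.76 ± 0.43 (adjusted p = 0.0153), and -1.29 after GC correction (adjusted p = 0.0957). Without control 3 or T.mu 4 its adjusted p was 0.0608 or 0.05. When the counts of Gstp1 and Gstp2 were summed, which avoids the uncertain split, the change was -0.78 ± 0.16 (adjusted p = 0.00174). Most of that sum is Gstp1, with 4572 counts in controls and 416 with T.mu, beside 420 and 18 for Gstp2. The GC correction, under which the Gstp1 call was lost, was not run on the sum. Gstp1 showed no lower values on the earlier days, with -0.09 ± 0.17 at day 3 and 0.15 ± 0.18 at day 14. Gstp2 was at 28.4, 23.3 and 32.2 CPM in day 3 controls and 17.8, 11.7 and 18.7 with T.mu (-0.84 ± 0.35, adjusted p = 0.76), and fell by 1.01 ± 0.23 averaged over days (adjusted p = 0.0044, or 0.00649 after GC correction). In epithelium neither was called on any day.

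Gstm1, of the mu class like Gstm3, was not called in any comparison of T.mu with control. In tissue its log2 fold changes were 0.01 ± 0.23, -0.09 ± 0.26 and -0.57 ± 0.22 on the 3 days, the last with adjusted p = 0.212 and T.mu values of 92.9, 64.7, 61.6 and 32.0 CPM against 80.3 to 103 in controls. In epithelium the group means ran from 159 to 254 CPM and the log2 fold changes from -0.17 to 0.27. Its closest paralog here, Gstm3, was thus called in day 3 epithelium where Gstm1 was at 0.27 ± 0.25.

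No other difference in response between the preparations was called by edgeR. At day 14 0 genes were called by edgeR (0.0% of all genes), with 2 at an unadjusted p under 0.05, 1 by DESeq2 and 0 by limma voom. At day 48 0 were called as well (0.0338% of all genes), with 7 at an unadjusted p under 0.05, 1 by DESeq2 (Gstp1, adjusted p = 0.0232) and 0 by limma voom. The edgeR difference for Gstp1 at day 48 was 1.08 ± 0.29 (adjusted p = 0.146). Differences between the days were called for 0 of 9 genes in epithelium and 0 of 10 in tissue (0.0% and 0.0684% of all genes), with 3 in each at an unadjusted p under 0.05 and 0 in each by limma voom. With a litter block, or with no filter, 2 were called in tissue, Cyp2s1 and Cyp4f15.

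Other genes of the pathway were counted by list, and the lists were drawn up with earlier results of these data known. In colonised tissue at day 48, 4 of 22 tested glutathione transferases were lower and none higher, with a median of -0.57 beside -0.11 for all genes (0.795% of all genes were lower). Besides Gstp1 and Gstp2 they were Mgst1, the microsomal transferase (-0.69 ± 0.19, adjusted p = 0.039), and Gstz1, of tyrosine breakdown (-1.24 ± 0.35, adjusted p = 0.0498). Of 27 other oxidoreductases 2 were lower, Aldh2, which clears acetaldehyde in mitochondria (-0.85 ± 0.18), and the carbonyl reductase Cbr3 (-1.67 ± 0.42). Of 15 glucuronosyltransferases and sulfotransferases 2 were higher, Sult1b1 (0.54 ± 0.15) and Sult1d1 (0.54 ± 0.14), beside 1.8% of all genes called in either direction. None of these 6 genes was called at day 48 after GC correction, with adjusted p from 0.0885 (Sult1b1) to 0.585 (Aldh2).

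Of the 10 tested carboxylesterases, 1 was lower in tissue at day 14 and 1 at day 48 (0.145% and 0.795% of all genes), with medians of -0.48 and -0.50. Averaged over days 4 were lower and none higher (median -0.41 beside -0.02, with 0.402% of all genes lower), the 3 described above and Ces1e, at -1.60 ± 0.39 (adjusted p = 0.0107, and 0.0093 after GC correction). Ces1e was also the esterase called at day 14 (-3.04 ± 0.81, adjusted p = 0.046), at 13.7 ± 9.12 CPM in controls and 1.33 ± 1.16 with T.mu (n = 3 each). The P450 list held 30 tested genes, of which 1 was lower at day 48 (Cyp2s1, beside 0.795% of all genes) and none higher. Tiparp, a target of the aryl hydrocarbon receptor, was higher in tissue averaged over days (0.58 ± 0.16, adjusted p = 0.0252, or 0.0599 after GC correction). The efflux transporter and glutathione supply lists had no calls at day 14 or 48 in tissue, in 7 and 11 genes tested.

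In epithelium, averaged over days, Cyp2c69 fell beside Cyp2c55 in the P450 list (-1.36 ± 0.35, adjusted p = 0.0169, and 0.0189 after GC correction), while Cyp4f40 rose (0.95 ± 0.25, adjusted p = 0.0187, or 0.137 after GC correction). The nuclear receptor partner Rxra also rose (0.89 ± 0.25, adjusted p = 0.0343), and had adjusted p = 0.212 after GC correction. In the contrast of control preparations, 21 of 33 P450 genes and 7 of 10 carboxylesterases were lower in epithelium. The P450 count includes Cyp4f15, which passed the filter only through its tissue counts. Of the glutathione transferases 11 of 23 were higher in epithelium and 3 lower, against 29.7% of all genes lower and 23.1% higher. The transferases higher there included Mgst1 (1.41 ± 0.14), Mgst3 (1.04 ± 0.11), Gstm2 (1.26 ± 0.19) and Gsta4 (1.19 ± 0.19). The efflux pump Abcb1a was lower in epithelium by 2.62 ± 0.13 on the log2 scale.

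The levels of the 10 genes varied together in part. Over the 20 tissue libraries the highest correlations of log2 CPM within the set were Cyp4f15 with Ces1g (Pearson r = 0.83), Gstp1 with Cyp2s1 (0.79) and Gstp1 with Gstp2 (0.79). Over the 20 epithelial libraries they were Cyp2c55 with Ces1g (0.74) and Gstm1 with Gstp1 (0.71). Among all genes tested, Ahcyl2 was closest to both Ces2a (0.93) and Ces1g (0.89) in tissue, and Trpm6, a magnesium channel, was closest to Cyp4f15 (0.89). Gpx4 was among the 3 closest to Gstp2 (0.92) and Coq4 the closest to Cyp2s1 (0.89). In epithelium the closest to Cyp2c55 was Insl5 (0.78), a hormone of enteroendocrine cells. These values describe libraries that share depth, composition and the GC content described above, and carry no test.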

How the data were processed

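RNA was extracted with phenol and chloroform and sequenced as 3′ end libraries (digital gene expression), per the labels' protocols. The deposited values are raw counts per gene ID, and STAR and Subread are named without a version per the submitters' processing notes. The sources used here give neither the genome build nor the strand setting nor whether molecular identifiers were collapsed, so reads from antisense transcripts cannot be told apart. The entry that is not a mouse gene took 0.389% of the 69164307 deposited counts and stayed out of library sizes and tests. Gene symbols came from GENCODE M21 (98.6% of IDs), and promoters from RefSeq.

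Counts were fitted with edgeR 4.0.16 (R 4.3.3; quasi-likelihood test, TMM scaling, filterByExpr with a minimum count of 10 and a minimum total of 15), in 1 fit per preparation over its 20 libraries. A fit of all 40 libraries served the comparison of preparations, the interactions and the levels in CPM. P-values were two-sided and adjusted over every tested gene (Benjamini-Hochberg), and 0.05 was the threshold. The SE of a log2 fold change was derived from that change and the F statistic of its test. It is therefore not a measure of spread apart from the p-value. Alternatives were DESeq2 1.42.0, limma voom 3.58.1, RLE scaling, no filter, fewer libraries, halved counts, a litter or animal block, and correction for GC content and transcript length (natural splines with 5 degrees of freedom). The label of each library names its litter, and the block pairs same-numbered libraries of a day, which assumes that a number marks the same litter in both arms. Only 3 of 20 pairs correlated above 0.1 in their deviations (r from -0.103 to 0.186). Between 60.6% and 86.9% of the counts below 20 in a library were even, which is why halved counts were also tried. The design text speaks of 3 mice per group, against 4 libraries at day 48. Replicate pairs differed beyond sampling noise (chi-square per degree of freedom from 2.753 to 61.09), so each library counted as 1 sample.

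Every one of the 10 genes was described, all were tested in total tissue, and 9 passed the filter in epithelium. The members and gene lists were chosen with earlier results of these data known. All 10 genes are named in each comparison; of each pathway list, up to 4 other genes past the threshold with the smallest adjusted p, and of genes alike in level, those among the 3 highest correlations. Summing Gstp1 and Gstp2, the GC correction without a block, and leaving out single libraries for comparisons of preparations, days or means were added after seeing the data. The analysis code was tested on simulated counts for the day 14 comparison in epithelium, with 200 changed genes among 9469. It called 7.3% of the 2-fold and 72.9% of the 4-fold changes, and 2 unchanged genes. A change of 2-fold or less that was not called is therefore not shown to be absent.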

Additional observations from a re-analysis of the deposited data

Results flagged for a closer look

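Of the 40 groups of 4 libraries that were screened for a library far from the rest (10 genes at day 48, Dixon's test at its 95% critical value), 3 held one. Chance gives about 1 in 20 such groups. Ces2a in colonised tissue at day 48 had 1 library at 1291.0 CPM, against 536.1, 588.2 and 664.6 in the others. That library, T.mu 3, was the deepest of its group, with 1355659 counts against 236155 to 691171. It also had the lowest summed Paneth cell and small intestine markers of the 4, at 42.8 CPM against 108 to 3601. The part of depth or of these markers was not tested. Without that library, which was singled out by its Ces2a value, the day 48 change was -0.95 on the log2 scale and past the threshold (edgeR, adjusted p = 0.000819). Ces1d in control epithelium at day 48 had 1 library at 27.9 CPM, below 40.4, 40.5 and 42.6. Cyp4f15 in control epithelium at day 48 had 1 library at 0.9 CPM, from 1 count, where the others were at 0. With the others at 0 any count would have been flagged. This flag therefore carries no weight beside the chance share.

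The response of Gstm3 at day 3 differed between epithelium and total tissue by 2.847 on the log2 scale (interaction test in edgeR, adjusted p = 0.00403). It was higher with T.mu in 3 of 3 epithelial libraries than in any control, and lower in 3 of 3 tissue libraries. The epithelial controls behind it held 21 counts in all.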

How the results depend on the processing

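Over all alternatives no value of the 10 genes that was called changed direction. Leaving out 1 library at a time left 1289 values on their side of the threshold, ended a call in 65 and made one in 6. The number of the 10 genes called moved as follows. Correction for GC content and length, without a block, gave 2 in epithelium at day 14, 1 at day 48, 4 in tissue at day 14, 0 at day 48 and 1 whose tissue response differed between days. The litter block (replicate block) gave 2 in tissue at day 14 and 2 between days, and block and correction together gave 0, 3 and 1 in epithelium at days 3, 14 and 48, 5 and 0 in tissue at days 14 and 48, and 2 between days. The block changed no call other than those given beside the results. Without libraries under 400000 counts there were 0 in epithelium at day 3, 2 in tissue at day 48, 2 for the tissue mean, 6 between control preparations and 0 interactions at day 3. RLE scaling gave 2 in tissue at day 14 and 6 between preparations, and no filter 2 at day 14 and 2 between days. DESeq2 gave 2 in tissue at day 14, 6 between preparations, and 1 interaction each at days 14 and 48. Limma voom gave 0 in epithelium at day 3, 0 and 1 in tissue at days 14 and 48, 0 interactions at day 3, and 1 between control days in tissue. With only the libraries compared, epithelium had 0 at day 3 and 3 at day 14. Leaving out 1 library gave 0 in epithelium at day 14, 1 to 3 for the epithelial mean (1 without day 14 control 1), and in tissue 0 to 1 at day 14 (0 without control 1), 2 to 6 at day 48 (2 without control 3 or T.mu 4), and 0 to 2 between days. The causes were not tested. Over all genes, calls ranged from 8 to 48 in epithelium at day 3 (36 as reported; 18 to 52 with 1 left out), 55 to 261 at day 14 (51; 19 to 50 with 1 library left out), and 149 to 507 for the mean (343; 137 to 585). In tissue they ranged from 47 to 103 at day 3 (56), 27 to 185 at day 14 (111; 54 to 196 with 1 left out), 99 to 538 at day 48 (210; 100 to 293) and 145 to 323 for the mean (222). DESeq2 was not run for tests over 3 days, nor the GC correction for comparisons of preparations or of control days, nor the block for control days. In colonised tissue at day 48 some of these genes rest on few counts (0 to 10 per library for Gstp2).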
